A study of Saccharomyces cerevisiae with 236 samples.

Results

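The deletion strains described here each lack 1 gene of leucine and branched-chain amino acid synthesis in Saccharomyces cerevisiae. They were chosen by name, for their place in the pathway and with earlier results of these data known. The list comprises LEU1 (YGL009C, chromosome VII), LEU3 (YLR451W, XII), LEU4 (YNL104C, XIV), LEU9 (YOR108W, XV), LEU5 (YHR002W, VIII), OAC1 (YKL120W, XI), BAT1 (YHR208W, VIII), BAT2 (YJR148W, X), ILV1 (YER086W, V) and ILV6 (YCL009C, III). Of these 10 genes, 8 had values in the table used, as 8 of 5179 strains and 16 of 10198 tags, and LEU5 and BAT1 were not analysed here. Each strain carries an uptag and a downtag, short DNA barcodes whose intensity on an array (log2) follows the strain's abundance in a pool after competitive growth for 5 generations.

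Leucine is made from pyruvate through acetolactate and 2-ketoisovalerate, steps that valine shares. Leu4 and its paralogue Leu9 are the isopropylmalate synthases, which join 2-ketoisovalerate to acetyl-CoA in mitochondria. Leu1, the isopropylmalate isomerase, and Leu2 carry the chain on in the cytosol, and the transaminases Bat1 (mitochondrial) and Bat2 (cytosolic) add the amino group. Leu3 is a transcription factor that isopropylmalate turns into an activator of several of these genes. Isoleucine comes from threonine, with Ilv1, the threonine deaminase, as the first step.

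Pools of 3 deletion collections were compared. YKOaux is the auxotrophic diploid collection in the BY4743 background, homozygous for his3Δ1, leu2Δ0 and ura3Δ0 and heterozygous for lys2Δ0 and met17Δ0. PBprot is the haploid BY4741 collection (MATa his3Δ1 leu2Δ0 met17Δ0 ura3Δ0) made prototrophic by pHLUM, a centromeric plasmid with HIS3, LEU2, URA3 and MET17. BCprot is the MATa backcrossed collection (can1Δ::STE2pr-SpHIS5 his3Δ1 lyp1Δ0), whose segregants were selected on minimal medium and which carries no plasmid. Growth in synthetic complete medium (SC) was the control for single dropouts and for minimal medium (MM). MM of both prototrophic collections held no amino acids, whereas that of YKOaux was supplemented with leucine among the nutrients its auxotrophies call for (60 mg/l per the labels, a smaller amount per the study's methods). YKOaux was not grown without histidine, leucine or uracil. YPD was the control for glycerol medium (YPG, 3% glycerol), for cisplatin (200 µM) and for 2% DMSO, and YPD with DMSO was the control for the uncouplers CCCP (32 µM) and FCCP (6 µM) and for the quinolone PCID 16001701 (PYRQ, 125 µM).

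The LEU– comparison rests on 3 LEU– and 4 SC arrays in PBprot and on 3 of each in BCprot. MM rests on 4 arrays in each prototrophic collection and 3 in YKOaux, which has 4 SC arrays. The study's methods describe the arrays of a condition as biological replicates from independent experiments. The FD score (fitness defect) is the control median minus the treatment intensity, as a median over treatment arrays, so a positive score marks a strain that was depleted. Calls required an FD score of 1 or more together with a q-value below 0.05, from limma over all strains tested in a set. A tag was taken as present when it stood above a background threshold (7.40 in YKOaux, 7.98 in PBprot and 7.35 in BCprot, in SC) in every control array.

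By the stricter rule, which asks that both tags be present, 5 members were tested in YKOaux in SC media, 2 in PBprot and 5 in BCprot. By the wider rule, which asks for 1 present tag and uses the steadiest one, the numbers were 8, 6 and 7. Both tags of the LEU1 deletion stayed near background in both prototrophic collections, starting pools included. Its uptag had a median percentile of 6.48 among all tags of an array in the PBprot starting pool and of 10.2 in BCprot, against 54 in YKOaux. The YKOaux LEU1 deletion had log2 uptag values of 9.36 to 10.16 in SC and 9.48 to 9.79 in MM with leucine, ranges that overlap, and its FD score there was 0.35 (SD 0.178, n = 3, limma q = 0.96).

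The data were first asked which of these strains were depleted when leucine alone was left out. In PBprot both members tested by the stricter rule, the LEU3 and LEU4 deletions, were called, beside 48 of 2194 strains in all (2.19%). By the wider rule the same pair was called of 6 members, with 2.70% of all strains called. In BCprot they were called of 5 members, where only 3 of 2430 strains passed (0.123%), and by the wider rule of 7 members, with 0.0750% of all strains. The third strain was the deletion of MPC1, which encodes a subunit of the mitochondrial pyruvate carrier. No member was called in the opposite direction in LEU–, where 0% of strains tested by either rule passed in PBprot and in BCprot. Since earlier results were known when the members were chosen, these counts are a description.

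In PBprot the LEU3 deletion's downtag had log2 values of 10.03, 10.16, 10.21 and 10.34 in SC and of 8.37, 8.55 and 8.85 in LEU–. All LEU– arrays lay below all SC arrays. Its FD score was 1.63 (SD 0.241, n = 3, limma q = 1.33e-08), rank 27 of 2194 strains. The uptag gave an FD score of 1.75.

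In BCprot the LEU3 downtag read 9.40, 10.13 and 10.30 in SC against 5.25, 7.45 and 8.94 in LEU–. The groups did not overlap, but the LEU– arrays spread widely, from a level well below the background threshold to one above it. The FD score of 2.69 (SD 1.86, n = 3, q = 0.000667) was the highest of all 2430 strains, and it ranged from 1.94 to 3.78 when single arrays were left out. The lowest value came from LEU– without replicate 1 and the highest from LEU– without replicate 3. Fitted on only the SC and LEU– arrays, without the other conditions' estimate of the spread, the same score had q = 0.998.

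LEU4 encodes the main isopropylmalate synthase. In PBprot its deletion had uptag values of 9.09, 9.26, 9.32 and 9.34 in SC and of 7.43, 7.67 and 7.74 in LEU–. Every LEU– array was below every SC array by more than 1 log2 unit, an FD score of 1.62 (SD 0.162, n = 3, q = 7.41e-10). All 3 of these LEU– arrays were below the background threshold of 7.98. The downtag, above it in every PBprot array of synthetic media, gave an FD score of 1.43.

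In BCprot the LEU4 uptag read 8.65, 8.93 and 9.16 in SC against 7.05, 7.17 and 7.80 in LEU–. Again the groups were separate, with an FD score of 1.76 (SD 0.402, n = 3, q = 0.000667). The LEU– values of 7.05 and 7.17 were below the background threshold of 7.35. The downtag was less clear, since 1 LEU– array stood at 10.43, inside the SC range of 9.99 to 10.81, and its FD score was 1.04. With the mean of both tags the strain was no longer called (FD score 1.44, q = 0.0993), nor was it with only the SC and LEU– arrays in the fit (q = 0.087).

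LEU9 encodes the second isopropylmalate synthase, and its deletion stayed at the SC level. The downtag in PBprot read 9.41, 9.54, 9.63 and 9.90 in SC and 9.42, 9.62 and 10.03 in LEU–, so the groups overlapped fully. The FD score was −0.04 (SD 0.311, n = 3, q = 0.91), with a 95% interval of the difference in means from −0.47 to 0.33. In BCprot the FD score was 0.03 (SD 0.554, n = 3, q = 0.9992).

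**Figure D1:**
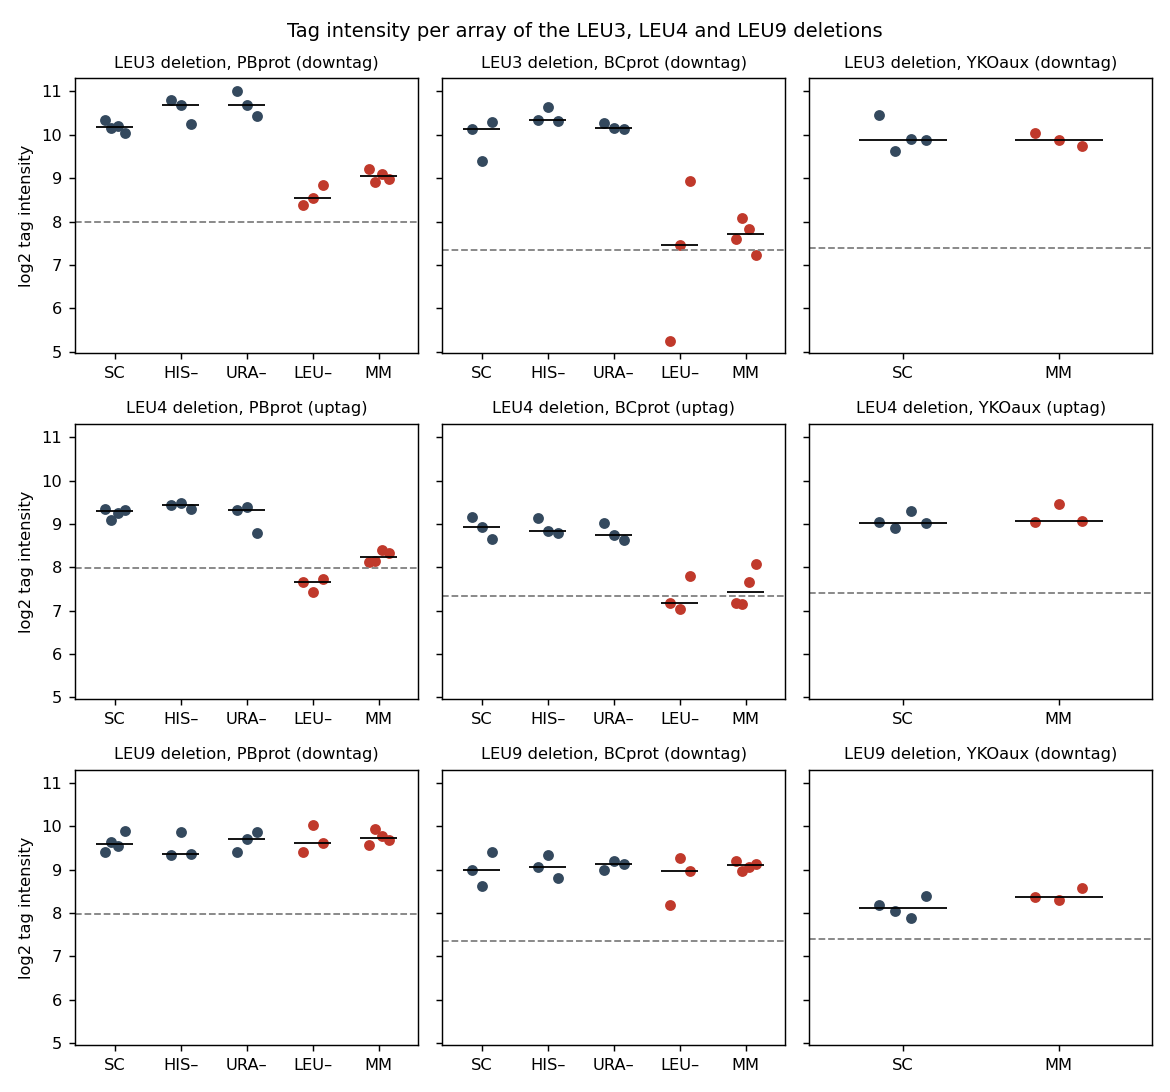
Log2 tag intensity of the LEU3, LEU4 and LEU9 deletions, 1 point per array, in SC, HIS–, URA–, LEU– and MM (SC and MM for YKOaux); black bars are medians and dashed lines the background thresholds of 7.98, 7.35 and 7.40. LEU– and MM (red) lie below SC for LEU3 and LEU4 in PBprot and BCprot, not for LEU9 and not in YKOaux, whose MM contained leucine.

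The paralogues were compared directly within arrays, as log2 of the LEU4 deletion minus log2 of the LEU9 deletion on the steadiest tag of each. In PBprot this difference lay between −0.58 and −0.07 in the 4 SC arrays and between −2.60 and −1.75 in the 3 LEU– arrays, 1.71 lower on average in LEU–. An exact two-sided permutation test over the arrays gave p = 0.029, the smallest value this test allows. The test shuffled the arrays freely and ignored the replicate numbers, by which LEU– and SC arrays deviated together in PBprot and in BCprot. In BCprot the mean fell by 1.38, and the exact two-sided permutation p of 0.10 was also the smallest possible with 3 arrays against 3. In MM the difference fell by 1.12 in PBprot and by 1.48 in BCprot, each with an exact two-sided permutation p of 0.029, again the smallest allowed. In YKOaux with leucine supplied it fell by 0.17 (exact two-sided permutation p = 0.57).

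The LEU9 uptag could not be used in the SC sets of the prototrophic collections. It was below the threshold in 14 of 14 arrays numbered replicate 1 of PBprot, at 5.18 to 6.22, and in 0 of the 30 others, at 9.22 to 10.67. In BCprot it was below in 11 of 15 replicate 1 arrays and in 0 of 25 others, and in YKOaux in no array. In PBprot the split fell on SC, dropouts and MM alike, while the downtag stayed above the threshold in all synthetic media arrays of each collection. By a looser count (below the threshold in at least 60% of replicate 1 arrays and at most 10% of the others) 404 of 10198 tags showed it in PBprot and 294 in BCprot. The BAT2 uptag split in this way in YKOaux, where it was below the threshold in 10 of 11 replicate 1 arrays and in 0 of 23 others.

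**Figure D2:**
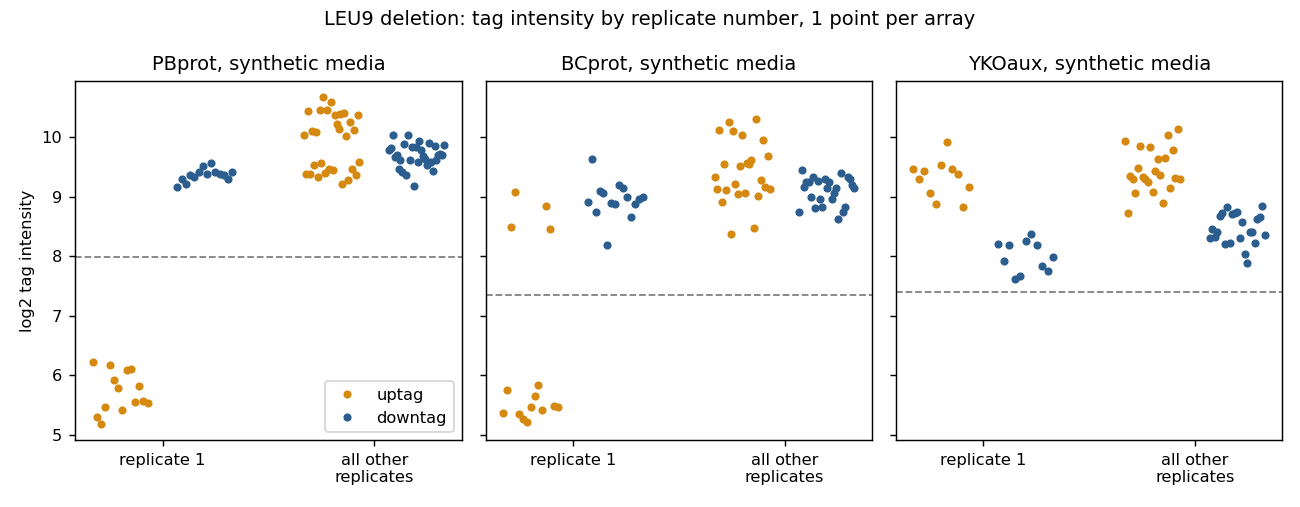
Log2 intensity of the uptag and downtag of the LEU9 deletion in all synthetic media, 1 point per array, split by replicate number; dashed lines are the background thresholds. In PBprot the uptag of all 14 replicate 1 arrays sits between 5.18 and 6.22, and all other arrays sit at 9.22 or above.

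OAC1 encodes a mitochondrial carrier of oxaloacetate that also moves isopropylmalate. The uptag of its deletion in PBprot read 9.19, 9.25, 9.46 and 9.96 in SC and 8.32, 9.09 and 9.39 in LEU–. Of the LEU– arrays, 2 fell below all SC arrays and 1 lay among them, and the strain was not called (FD score 0.26, SD 0.553, n = 3, q = 0.27). In BCprot the FD score was 0.02 (SD 0.384, n = 3, q = 0.9992). The downtag was below the threshold in 44 of 44 PBprot and 29 of 40 BCprot arrays of synthetic media.

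BAT2 and ILV6 (the regulatory subunit of acetolactate synthase) gave FD scores near 0 in LEU–. The BAT2 deletion had FD scores of −0.10 (SD 0.249, n = 3, q = 0.96) in PBprot and −0.14 (SD 0.0344, n = 3, q = 0.9992) in BCprot. The ILV6 deletion had FD scores of −0.02 (SD 0.212, n = 3, q = 0.98) and −0.02 (SD 0.146, n = 3, q = 0.9992). For ILV6 in PBprot the 95% interval of the difference in means ran from −0.56 to 0.62, which leaves room for a change smaller than the threshold.

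Strains that depend on the plasmid or on a shared nutrient pathway can fall in HIS–, LEU– and URA– alike, so LEU– was next set against the mean of HIS– and URA–. Here 0.820% of strains passed q in PBprot by the stricter rule and 0.123% in BCprot. The LEU3 deletion was lower in LEU– by 2.05 (SE 0.153, q = 3.97e-12) in PBprot and by 3.09 (SE 0.388, q = 5.22e-06) in BCprot. The LEU4 deletion was lower by 1.68 (SE 0.139, q = 4.11e-11) and by 1.52 (SE 0.221, q = 7.02e-05). In PBprot neither HIS– nor URA– lowered the LEU3 deletion, since its downtag read 10.24, 10.69 and 10.79 in HIS– and 10.43, 10.68 and 11.01 in URA–, within or above the SC range. The study's methods subtract from LEU– of PBprot the median FD score over all HIS–, LEU– and URA– arrays. The same subtraction, applied here to BCprot as well, left LEU3 at 1.88 and LEU4 at 1.66 in PBprot (ranks 2 and 4 of 2194 strains) and at 2.70 and 1.57 in BCprot (ranks 1 and 3 of 2430).

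The OAC1 deletion passed this contrast in PBprot by the wider rule, at 0.92 (SE 0.225, q = 0.0343, where 0.802% of strains passed). Its HIS– values of 9.79, 9.79 and 10.17 and its URA– values of 9.55, 9.65 and 10.12 were all above the 3 LEU– arrays. In HIS– the FD score was −0.44, higher than SC, so the contrast does not measure depletion in LEU– alone. The estimate was the same with the replicate number as a block (q = 2.52e-06), a pairing that the PBprot dropout arrays bear out. The study's subtraction left OAC1 at 0.56 in PBprot, rank 61 of 4115 strains by the wider rule. Single arrays were left out only in the fit without the block, and the contrast's call was lost there for any of 4 arrays. Without LEU– replicate 2 the contrast was 0.61 (q = 0.958), without LEU– replicate 3 it was 1.00 (q = 0.0728), and without HIS– replicate 1 or URA– replicate 1 it was 0.85 (q = 0.113) and 0.83 (q = 0.113). In BCprot it was 0.33 (SE 0.261, q = 1, where 0.1% passed), and neither LEU9, BAT2 nor ILV6 passed in either collection, nor ILV1 in BCprot.

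**Figure D3:**
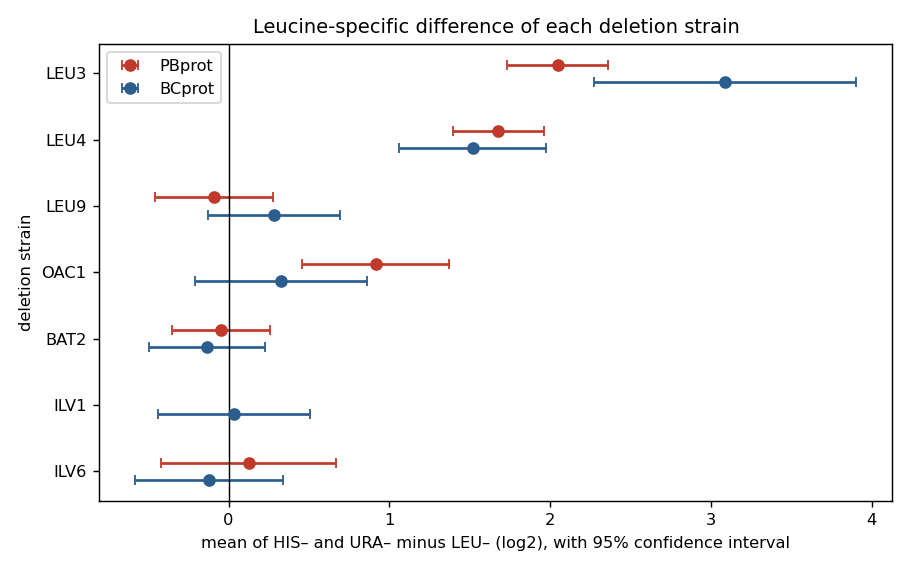
Mean of HIS– and URA– minus LEU– (log2) for each deletion strain with a present tag, with 95% confidence intervals from the limma fit, in PBprot (red) and BCprot (blue). The LEU3 and LEU4 intervals lie above 1 in both collections, and OAC1 in PBprot (0.92) is the only other member whose interval leaves out 0.

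Minimal medium lacks leucine together with isoleucine, valine and every other amino acid. The LEU3 and LEU4 deletions were again the members called in the prototrophic collections, with 3.78% of strains called in PBprot and 0.617% in BCprot by the stricter rule and 4.59% and 0.6% by the wider. In PBprot the LEU3 downtag read 8.90, 8.99, 9.09 and 9.20 in MM, all below SC, an FD score of 1.15 (SD 0.127, n = 4, q = 5.74e-07). In BCprot it read 7.23, 7.59, 7.82 and 8.08, an FD score of 2.43 (SD 0.360, n = 4, q = 0.00137). These MM arrays too were all below the SC arrays.

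The LEU4 uptag read 8.13, 8.14, 8.34 and 8.41 in PBprot MM, an FD score of 1.05 (SD 0.145, n = 4, q = 1.22e-06). This score is just past the threshold of 1. It was 0.94 with quantile normalization, 0.94 with the mean of both tags, and 0.95 without MM replicate 1 or without MM replicate 2, so the call was lost in each while q stayed below 0.05. In BCprot the uptag read 7.15, 7.18, 7.67 and 8.08 in MM, an FD score of 1.51 (SD 0.443, n = 4, q = 0.00041). The values of 7.15 and 7.18 were below the background threshold of 7.35. In the single BCprot array of MM with 760 µM uracil the FD scores were 1.57 for the LEU3 downtag and 1.08 for the LEU4 uptag, with no replicate.

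In YKOaux, whose MM contained leucine, neither strain was called, nor any of the 5 members tested by the stricter rule (1.14% of strains called). The LEU3 uptag read 7.74, 7.88, 7.99 and 7.99 in SC and 8.19, 8.32 and 8.52 in MM, slightly higher in MM, with an FD score of −0.39 (SD 0.166, n = 3, q = 0.86). Its downtag gave an FD score of 0.00125. The LEU4 FD score was −0.03 (SD 0.231, n = 3, q = 0.97). A joint fit of both SC sets, chosen after these values were seen, tested the difference between collections in the effect of MM. The effect on LEU3 was larger than in YKOaux by 1.58 in PBprot (SE 0.328, q = 0.00054) and by 2.71 in BCprot (SE 0.543, q = 0.00153). For LEU3 the fit set the YKOaux uptag (FD score −0.39) against the downtag of PBprot and BCprot. The YKOaux downtag (FD score 0.00125) did not enter it, so part of these differences may lie in the choice of tag. On LEU4, with the uptag in each collection, the effect was larger by 1.12 (SE 0.203, q = 6.57e-05) and by 1.52 (SE 0.288, q = 0.000626). In that fit 5.11% of strains differed between PBprot and YKOaux and 0.661% between BCprot and YKOaux. Ploidy, auxotrophy and medium all differed between these collections and cannot be told apart.

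In PBprot the estimates for both strains were lower in LEU– than in MM, although MM lacks more, but only LEU4 passed in the main fit. For LEU4 LEU– was lower than MM by 0.64 (SE 0.15, q = 0.00879, where 2.14% of strains passed), and without LEU– replicate 2 the difference was 0.55 (q = 0.11). The LEU4 uptag was below the background threshold in every PBprot LEU– array, which limits how the size of its difference can be read. For LEU3 LEU– was lower by 0.45 (SE 0.165, q = 0.29), with the replicate number as a block by 0.49 (q = 0.0283), and with the mean of both tags by 0.49 (q = 0.049). In BCprot the differences of 0.47 (SE 0.419, q = 0.9997) and 0.18 (SE 0.238, q = 0.9997) did not pass (0.617% of strains did).

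The depletion was also set against itself between PBprot and BCprot. The LEU3 effect was smaller in PBprot by 1.14 in LEU– (SE 0.466, q = 0.43) and by 1.12 in MM (SE 0.434, q = 0.23), neither past the threshold over 1947 shared strains. As PBprot minus BCprot, the unadjusted 95% intervals ran from −2.07 to −0.21 in LEU– and from −1.99 to −0.26 in MM. In LEU– the LEU3 effect was smaller by 2.00 (q = 0.000561) without BCprot LEU– replicate 3 and by 0.16 without BCprot LEU– replicate 1, so the LEU– value turned on single arrays. In MM the LEU3 difference, PBprot minus BCprot, ranged from −1.40 to −0.95 with single arrays left out, with q from 0.109 to 0.491. The LEU4 effect differed by 0.06 in LEU– (95% interval −0.51 to 0.64) and fell by 0.40 from BCprot to PBprot in MM (95% interval −0.93 to 0.14). These LEU4 values rest on the uptag, which fell below the background threshold in LEU– arrays of both collections, so likeness in size is uncertain. Of the shared strains 1.18% differed in LEU– and 2.77% in MM.

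The remaining members kept near SC in MM. The LEU9 deletion had FD scores of −0.15 (SD 0.156, n = 4) in PBprot, −0.11 (SD 0.0989, n = 4) in BCprot and −0.25 (SD 0.141, n = 3) in YKOaux. The OAC1 deletion had FD scores of −0.01 (SD 0.273, n = 4), 0.03 (SD 0.159, n = 4) and −0.16 (SD 0.179, n = 3). BAT2 gave −0.11 (SD 0.144), −0.04 (SD 0.390) and 0.11 (SD 0.066), and ILV6 gave −0.16 (SD 0.289), −0.06 (SD 0.391) and −0.13 (SD 0.252), in the same order. None of these scores was called, and the smallest q among them was 0.67.

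ILV1 was the one member called in YKOaux. The downtag of its deletion read 8.37, 8.66, 8.99 and 9.04 in SC and 5.27, 6.24 and 6.31 in MM, so every MM array had fallen below the background threshold. The FD score was 2.58 (SD 0.582, n = 3, q = 0.00112), rank 26 of 4363 strains by the wider rule, where 1.17% were called. It ranged from 2.42 to 3.07, with q between 0.00185 and 0.0247, when single arrays were left out. The uptag was below the threshold in 3 of 4 SC arrays already, so the call rests on 1 tag.

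In PBprot no ILV1 tag was present in every SC array, and the strain was tested only by a looser rule chosen after the values were seen, in which the mean of the SC arrays had to pass the threshold. The downtag read 7.74, 7.98, 8.34 and 8.95 in SC, 6.74, 6.84, 7.79 and 7.79 in MM, and 8.88, 9.50 and 9.87 in LEU–. The FD scores were 0.84 in MM (SD 0.582, n = 4, q = 0.33, with 4.89% of strains called) and −1.35 in LEU– (SD 0.502, n = 3, q = 0.39). The latter was the lowest FD score of 4400 strains, yet it did not pass the test, as 0.0455% of strains did. MM was lower than LEU– by 2.13 (SE 0.620, q = 0.0715, where 2.11% passed), and the MM and LEU– arrays did not overlap.

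In BCprot the ILV1 deletion was not lowered by MM. The downtag read 9.45, 9.75 and 9.77 in SC and 9.80, 9.88, 10.11 and 10.47 in MM, all MM arrays being higher, with an FD score of −0.24 (SD 0.302, n = 4, q = 0.92). In LEU– the downtag mean was 10.2 (SD 0.409, n = 3), against 9.66 (SD 0.182, n = 3) in SC. The strain ranked 1902 of 2430 by FD score there and was not called. In the joint fit the effect of MM was lower by 3.23 in BCprot than in YKOaux (SE 0.6, q = 0.000452). Yeast without Ilv1 requires isoleucine, which MM of BCprot did not contain. What lies behind the level of the BCprot strain was not tested.

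Both tags of the ILV1 deletion also changed rank between rich and synthetic media. Sets and starting pools were normalized separately, so levels were set side by side only as percentiles among all tags of an array, with no test. In PBprot the downtag had a median percentile of 98.2 in the starting pool, 97.1 in YPD, 34.2 in SC and 27 in MM. In YKOaux the medians were 84.7, 90.7, 39.2 and 12.8. In BCprot they were 91.5, 86.6, 65.9 and 69.6, a smaller step. The PBprot uptag went from 69.1 in the starting pool and 65.4 in YPD to 23.1 in SC, so both tags moved the same way.

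**Figure D4:**
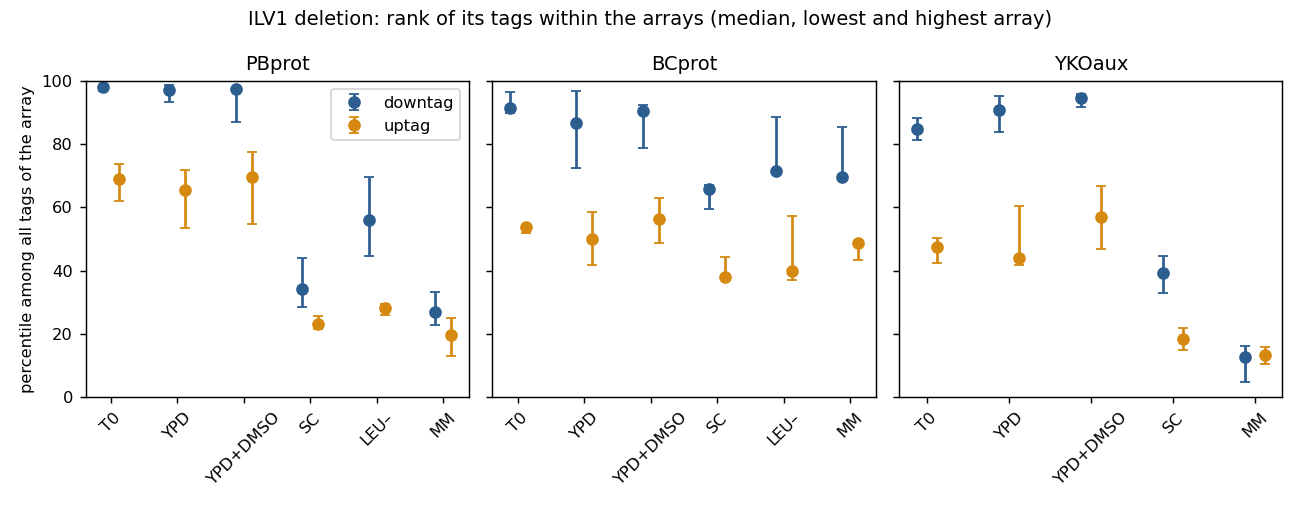
Percentile of the downtag and uptag of the ILV1 deletion among all tags of each array in the starting pool (T0), YPD, YPD with DMSO, SC, LEU– and MM; points are medians and bars run from the lowest to the highest array. In PBprot and YKOaux the downtag stands above 80 in T0 and rich media and at 34.2 and 39.2 in SC.

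No other replicated condition gave a call. Over the other 9 to 11 dropouts of each collection and the 6 comparisons in rich media, 341 FD scores were obtained for the 8 members by the wider rule, and 0 were called in either direction, against 0.682% of all strain scores called as depleted and 0.0346% in the opposite direction. These scores ran from −0.77 to 0.95. Both extremes belonged to the YKOaux ILV1 deletion, in GLN– (SD 0.807, n = 3, q = 1.00, where 2 of the arrays carry the same replicate number and may be a repeat) and in TRP– (SD 0.780, n = 3, q = 1.00). At an unadjusted limma p under 0.05 there were 22 scores (6.45%), against 5.99% of all strain scores in these comparisons. Only 1 had q under 0.05, the YKOaux ILV1 deletion in CCCP (FD score 0.41, SD 0.214, n = 3, q = 0.0402). In YPG the largest score was 0.60 for the YKOaux ILV6 deletion (n = 2). The LEU4 deletion stayed between −0.45 and 0.39 in all of these comparisons and the LEU3 deletion between −0.50 and 0.33.

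**Figure D5:**
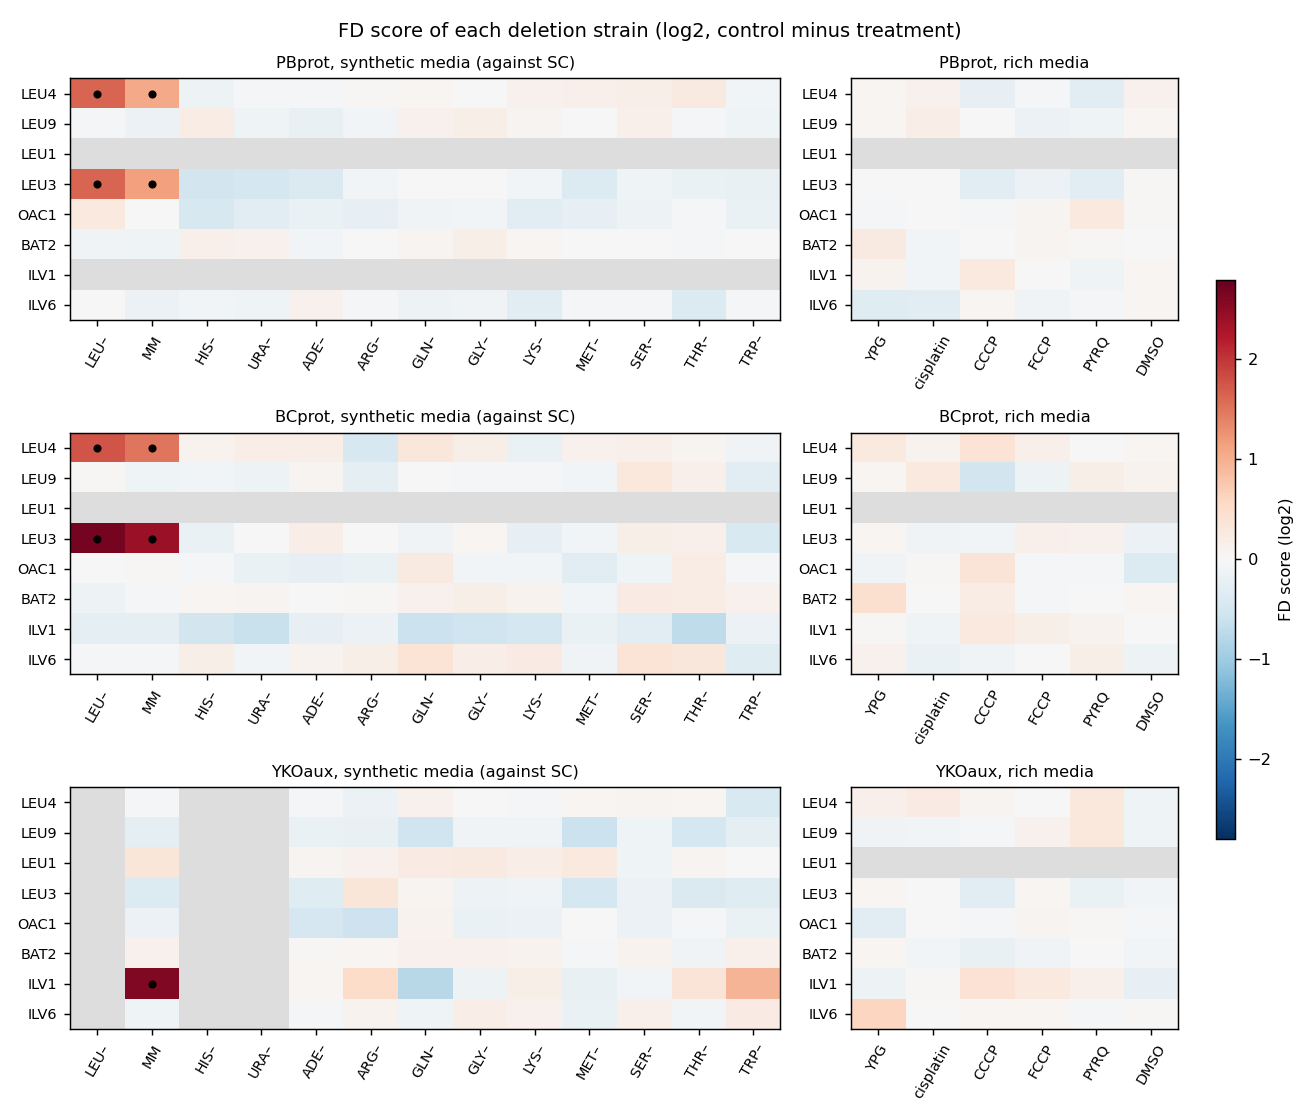
FD score (log2, control minus treatment) of each deletion strain by condition and collection, by the wider rule; red marks depletion, black dots mark calls and grey cells have no present tag or were not grown. Every dot is LEU3 or LEU4 in LEU– or MM of PBprot and BCprot, or ILV1 in YKOaux MM.

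Of 26 other genes listed for the pathway and its supply, 20 had tags. They were chosen with results of these data known, so their counts and medians are a description and no evidence for a pathway pattern. By the wider rule 4 of 17 tested in PBprot LEU– were called (2.70% of all strains), all for the entry of pyruvate into mitochondria and its conversion to acetyl-CoA. They were the deletions of MPC1 (FD score 2.88, SD 1.41, n = 3) and MPC2 (1.14, SD 0.068), the pyruvate carrier, and of PDX1 (1.24, SD 0.257) and LPD1 (2.44, SD 0.738), subunits of pyruvate dehydrogenase. The list's median FD score was 0.27, against −0.09 over all strains tested. In BCprot LEU– MPC1 alone was called of 15 (1.67, SD 0.283, n = 3, where 0.0750% of all strains were), with a list median of 0.06 against −0.08. The 5 pyruvate entry and acetyl-CoA genes tested there had a median FD score of 1.48, against 1.37 for the 6 tested in PBprot. The 2 medians do not cover the same set of genes, and a difference or likeness between collections was not tested. In BCprot LAT1 (1.51, SD 0.683, q = 0.9992), PDA1 (1.48, SD 0.608, q = 0.247) and MPC2 (1.38, SD 0.346, q = 0.0726) missed the q threshold. By the stricter rule 1 of 7 listed genes was called in PBprot (PDX1, with 2.19% of all strains called) and 1 of 8 in BCprot (MPC1, with 0.123%).

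The listed genes called in MM are given for each collection, but the strains tested were not the same ones and differences between collections were not tested. In PBprot they were MPC1, LPD1, PDA1, PDB1, THR1 and THR4, 6 of 17 (4.59% of all strains), of which THR1 (FD score 3.51, SD 0.590, n = 4) and THR4 (3.33, SD 0.694) make threonine, the precursor of isoleucine. In BCprot they were MPC1 (1.56, SD 0.421, n = 4) and MPC2 (1.17, SD 0.465), 2 of 15 (0.6% of all strains). MPC2 had an FD score of 0.99 (SD 0.312, n = 4, q = 0.0153) in PBprot, just under the threshold of 1. In YKOaux 5 of 19 were called (1.17% of all strains), THR1 (2.95, SD 0.504, n = 3), THR4 (2.85, SD 0.458) and the general amino acid control genes GCN4 (3.63, SD 0.816), GCN20 (1.96, SD 0.485) and GCN3 (1.69, SD 0.0446). STP1, a factor of the amino acid sensor, and TAT1, an amino acid permease, were called in the opposite direction there (−2.34, SD 0.189, and −2.36, SD 0.201), where 0.229% of strains passed.

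The FD profiles over the 13 synthetic conditions were compared across strains as a description, since these conditions share their SC arrays. They include the LEU– or MM comparisons in which each member was called. A high r with other strains depleted there therefore adds no evidence. By the stricter rule the profile most like that of LEU3 in PBprot was LEU4 (Pearson r = 0.963), before PDX1 (0.936) and MRPL17 (0.914). For LEU4 the next after LEU3 were FSF1 (0.925) and PDX1 (0.919). In BCprot the nearest to LEU3 were MPC1 (0.959), LEU4 (0.95) and PDA1 (0.947), and the nearest to LEU4 were LEU3 (0.95), PDA1 (0.903) and MPC1 (0.9). For ILV1 in YKOaux, over 10 conditions and by the wider rule, they were TMA22 (0.948), BOI1 (0.947) and YMR315W (0.946).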

How the data were processed

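Barcode arrays of pooled deletion strains were read as log2 intensities, deposited by the authors after median normalization, done apart for each tag type and each set. The study's methods batch corrected replicates with ComBat, and whether the deposited values include that step is not given in the sources used here. The table held 10198 tags on 236 arrays, from 3.61 to 14.67. Of these, 234 arrays were assigned to groups by their labels, and 2 BCprot arrays whose labels contradict each other were left out. The number of arrays limits the precision.

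Presence thresholds came from a Gaussian mixture of 2 components per set (posterior over 0.5 in every control array). Strains were fitted with limma 3.58.1 in R 4.3.3, on every array of a set together with a mean for each condition, and q-values are Benjamini-Hochberg adjusted over all strains tested. The steps were tested on simulated data. Every member was described in LEU– and MM, and elsewhere where called. The members and gene lists were chosen with earlier results of these data known. Same-numbered PBprot arrays of each dropout and SC deviated together (lowest correlation 0.365). So did those of YKOaux dropouts (lowest 0.213) and, in the 2 pairs that share a number, of BCprot LEU– (0.476 and 0.663). A replicate block was therefore tried, beside other tag rules, normalizations, fits and single arrays left out.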

Additional observations from a re-analysis of the deposited data

Results flagged for a closer look

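Among 111 groups of 4 to 10 arrays of these strains, 4 held an array far from the rest by Dixon's criterion, where chance alone flags about 1 in 20 groups. The ILV6 downtag read 10.54 in BCprot LYS– replicate 1, against 9.91 to 10 in the others, of which 2 share a replicate number and may be a repeat. The ILV1 downtag read 10.88 in BCprot cisplatin replicate 1, against 10.56 to 10.61. The LEU4 downtag read 10.37 in BCprot YPD with DMSO replicate 6, against 10.70 to 10.92. The LEU3 downtag read 10.12 in PBprot cisplatin replicate 4, against 10.42 to 10.48.

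The effect of MM differed between collections for 3 strains by the joint limma fit, which was chosen after the values were seen. Over all strains 5.11% differed between PBprot and YKOaux and 0.661% between BCprot and YKOaux. The effect was larger than in YKOaux by 2.71 for LEU3 and 1.52 for LEU4 in BCprot, and by 1.58 and 1.12 in PBprot. The LEU3 values set the YKOaux uptag against the downtag of the others. Ploidy, auxotrophy and medium, which held leucine in YKOaux, all differed and cannot be told apart. For ILV1 the difference of BCprot from YKOaux was −3.23.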

How the results depend on the processing

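The count of 2 members called in LEU– and in MM of each prototrophic collection was 1 in all 4 comparisons with a posterior of 0.9, by which the LEU3 deletion lost a tag and was not tested. With the mean of both tags it was 1 in BCprot LEU– and in PBprot MM, and with quantile normalization 1 in PBprot MM. With only the treatment and control arrays it was 0 in BCprot LEU–, and the strains called there were 1 in place of 3 under this setting, with the mean of both tags and with a posterior of 0.9. In YKOaux MM it was 0 by the stricter rule and 1 (ILV1) by the wider rule or by the mean of the controls. Leaving out single arrays gave 1 to 2 members in PBprot MM, and 2 throughout in PBprot LEU–, BCprot LEU– and BCprot MM. The leucine-specific contrast of OAC1 in PBprot ranged from 0.61 to 1.14 with single arrays left out, with q from 0.0138 to 0.958.

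Some signs turned among differences that never passed the test when 1 array was left out. The PBprot and BCprot difference of LEU4 in LEU– (0.06) ranged from −0.16 to 0.21. MM against LEU– in BCprot ranged from −1.33 to 0.51 for LEU3 and from −0.41 to 0.00887 for LEU4. The exact permutation p of the LEU4 and LEU9 difference was 0.0667 to 0.1 in PBprot LEU– and in BCprot MM with 1 array left out, where fewer arrangements exist.

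The replicate block gave 53 strains called in PBprot LEU– against 48 without it, and it changed the call of 1 member result, LEU3 in MM against LEU– (−0.49). Strains called in PBprot LEU– were 111 by the wider rule, 122 by the mean of the controls and 25 with a posterior of 0.9. In PBprot MM they were 83 by the stricter rule, 189 by the wider rule and 215 by the mean of the controls, and in BCprot MM 15, 24 and 24.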
